A study of Homo sapiens with 108 samples.

Results

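The dedifferentiated, invasive state of melanoma was followed through 10 marker genes, AXL, NGFR, EGFR, SOX9, WNT5A, ZEB1, TNC, VIM, FN1 and CDH2, in 6 human melanoma lines. A probe represented a marker when the platform's annotation gave it that marker as its single gene symbol, which held for 11 of the 54359 probes and for 9 of the 10 genes, out of 18278 genes with such a probe. VIM appeared on 1 probe only, together with the symbols ZYX and SH3GL1, and was therefore not measured here. Of the 11 probes, 8 passed the filters on missing and dim values that left 32061 probes for testing, and these 8 stood for AXL, NGFR, EGFR, SOX9, WNT5A, TNC, FN1 and CDH2. The ZEB1 probe and 2 further EGFR probes lacked values on too many arrays and are described separately.

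The lines, MeWo, HMV-I, HMV-II, Colo679, C32TG and 92-1, each received 2 Gy as carbon ions or as X-rays, and total RNA was labelled with biotin and hybridised to single-colour CodeLink whole-genome arrays. Carbon ions are heavy particles that deposit their energy densely along a track, whereas X-rays deposit it sparsely. For each line the groups were carbon ions at 1 h, carbon ions at 3 h and carbon ions at 0 Gy, and X-rays at 1 h, X-rays at 3 h and X-rays at 0 Gy, with 3 arrays in each of the 36 groups and 108 arrays in all. Every beam therefore had its own 0 Gy set, and the 1 h and 3 h changes of a beam were taken from the same 0 Gy arrays. The labels name no genetic modification and no further agent for any group, and separate cultures for the 3 arrays within a group are not stated, so that p-values within a line measure the spread between arrays, which may be technical. In RNA from whole cultures, fewer cells in a state and less RNA per cell cannot be told apart.

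Melanoma cells can move between a pigmented state, held by the transcription factor MITF, and a dedifferentiated state in which pigment genes are low and genes of adhesion, matrix and growth factor signalling are high. AXL, the receptor tyrosine kinase that binds GAS6, the epidermal growth factor receptor EGFR and the neurotrophin receptor NGFR are receptors of that second state. WNT5A is a secreted ligand of non-canonical Wnt signalling, SOX9 and ZEB1 are transcription factors, TNC (tenascin C) and FN1 (fibronectin) are matrix glycoproteins, and CDH2 (N-cadherin) joins neighbouring cells. NGFR is known above all from neural crest-like melanoma cells, and ZEB1 is known to replace ZEB2 when melanoma cells dedifferentiate.

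The promoter windows of 3 markers for which HMV-I lay above or below every other line are shown for context, for EGFR only by probes outside the filters. Each is the 250 bases before an annotated start in RefSeq (GRCh38.p14), 5′ to 3′ on the strand of the gene. The windows are chr2:215436069-215436318 on the minus strand for FN1, chr19:41218973-41219222 on the plus strand for the first start of AXL, and chr7:55018767-55019016 and chr7:55109589-55109838 on the plus strand for 2 annotated starts of EGFR. The windows of WNT5A, ZEB1 and a second start of AXL were searched but are not shown. Capitals mark every match, on either strand and with overlaps allowed, of TGANTCA (AP-1), TGACGTCA (cyclic AMP response element), GGAATG (TEAD) and GGGCGG (GC box). CACGTG (an E-box bound by MITF), CATGTG (the core of the M-box), TATAAA (a core promoter element) and CAGGTG (an E-box bound by ZEB1) were searched too and are left in lower case. The CATGTG of the second EGFR window overlaps a TGANTCA.
FN1: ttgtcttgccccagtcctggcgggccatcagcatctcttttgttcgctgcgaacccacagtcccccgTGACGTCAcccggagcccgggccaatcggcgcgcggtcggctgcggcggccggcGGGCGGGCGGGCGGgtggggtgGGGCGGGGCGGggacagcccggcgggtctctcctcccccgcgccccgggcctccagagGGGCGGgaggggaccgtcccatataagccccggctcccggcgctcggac
AXL: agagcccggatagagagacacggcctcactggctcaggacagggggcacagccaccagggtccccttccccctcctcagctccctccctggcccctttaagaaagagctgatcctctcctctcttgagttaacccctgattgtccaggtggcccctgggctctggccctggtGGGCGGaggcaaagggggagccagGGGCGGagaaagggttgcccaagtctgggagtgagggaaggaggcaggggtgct
EGFR, first start: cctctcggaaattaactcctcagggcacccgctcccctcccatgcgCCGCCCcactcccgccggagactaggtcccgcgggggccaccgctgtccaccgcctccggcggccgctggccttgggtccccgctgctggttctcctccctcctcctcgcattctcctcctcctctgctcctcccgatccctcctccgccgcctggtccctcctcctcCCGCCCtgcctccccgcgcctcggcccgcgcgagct
EGFR, second start: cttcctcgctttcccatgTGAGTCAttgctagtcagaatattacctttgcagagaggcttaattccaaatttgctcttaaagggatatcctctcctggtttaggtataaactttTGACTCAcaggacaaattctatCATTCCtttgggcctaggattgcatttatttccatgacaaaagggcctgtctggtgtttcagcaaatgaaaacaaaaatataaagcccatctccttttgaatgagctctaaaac
The FN1 window was 76.4% G and C and held 6 GC boxes, some overlapping, and 1 cyclic AMP response element that began 183 bases before the start. The AXL window held 2 GC boxes and 1 CAGGTG that began 106 bases before the start. The first EGFR window held 2 GC boxes, while the second held 2 TGANTCA, 1 GGAATG, 1 CATGTG and 2 TATAAA. Among the 250-base windows of all 35116 annotated starts, 42.6% held GGGCGG, 1.65% TGACGTCA, 6.57% TGANTCA, 11.9% GGAATG, 9.42% CATGTG, 6.34% CACGTG, 10.7% TATAAA and 17.5% CAGGTG. The matches describe letters in these windows, and no binding was measured.

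Levels are given as log2 of the deposited spot intensity after quantile normalization, on a scale where 0 lies near the median spot of an array, and each probe is compared only with itself. Differences between lines were tested with limma on the 12 unirradiated set means (6 lines, 2 sets each), with Benjamini-Hochberg adjustment over all 32061 probes at 0.05. Of the 8 markers tested, 6 differed between the lines (FN1, SOX9, WNT5A, TNC, AXL and NGFR), against a background of 59.6% of all probes. CDH2 (adjusted p = 0.0656) and the kept EGFR probe (adjusted p = 0.701) did not pass. Pairs of lines were tested too. For pairs with HMV-I, 35.1% (C32TG), 32% (MeWo), 28.7% (HMV-II), 27.8% (Colo679) and 26.6% (92-1) of all probes passed. For pairs with MeWo the shares were 31.6% (92-1), 27.1% (C32TG), 23.5% (HMV-II) and 23.3% (Colo679). For pairs with C32TG they were 31.6% (92-1), 26.3% (HMV-II) and 22.7% (Colo679), and for the remaining pairs 27.1% (92-1 and HMV-II), 21.4% (92-1 and Colo679) and 19.9% (Colo679 and HMV-II).

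HMV-I, which stood apart from the other lines, had the highest levels of AXL and WNT5A and the lowest of FN1 and SOX9. Each of these 4 markers differed between HMV-I and every one of the other 5 lines. HMV-I was higher than each other line for 2 of 8 markers (3.68% of all probes) and lower than each for 2 of 8 (3.36% of all probes). Colo679 was higher than each other line for 1 of 8 markers, SOX9 (1.46% of all probes), and the remaining lines stood above or below all others for 0 of 8, as Colo679 stood below them for 0 of 8.

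**Figure D1:**
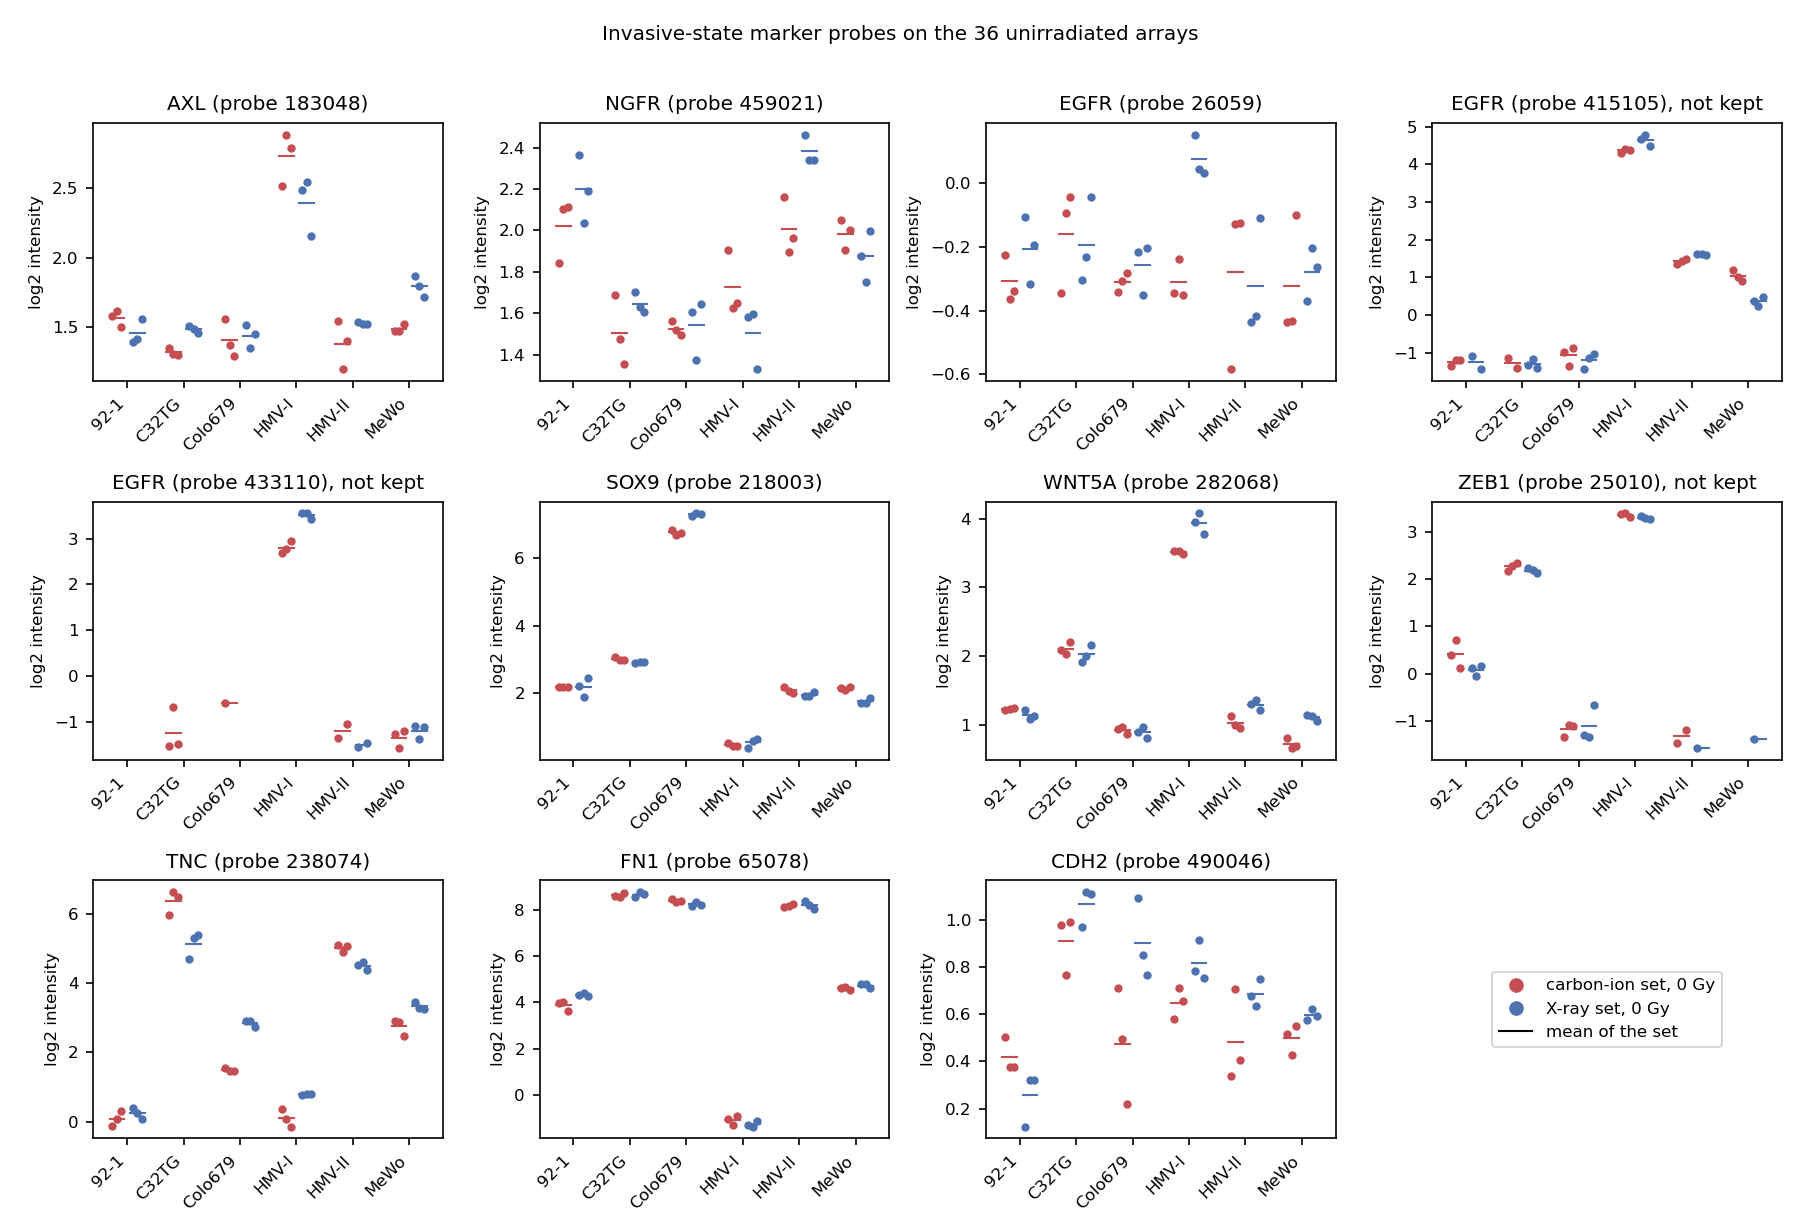
Unirradiated log2 level of the marker probes (relative to the array's median spot) in 6 lines. Each point is 1 array, with the carbon-ion and X-ray 0 Gy sets drawn in red and blue and the mean of each set as a bar (log2 axis, different range per panel); AXL and WNT5A are highest and FN1 and SOX9 lowest in HMV-I, and SOX9 is highest in Colo679.

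Among the receptors, AXL ran from 2.16 to 2.89 (median 2.53) over the 6 unirradiated arrays of HMV-I, against 1.47 to 1.87 (median 1.62) in MeWo, the next line. In 92-1, HMV-II, Colo679 and C32TG the AXL medians were 1.53, 1.52, 1.41 and 1.40. All 6 HMV-I arrays lay above all arrays of the other lines. HMV-I minus MeWo was 0.92 log2 (1.89-fold, 95% interval 0.51 to 1.34, adjusted p = 0.00411), and no pair of neighbours among the other 5 lines differed, with adjusted p from 0.629 to 0.955. The difference between lines in AXL rested on HMV-I, since without that line the adjusted p of the limma F test was 0.656. NGFR covered a narrow range, with means of 2.19 in HMV-II, 2.11 in 92-1, 1.93 in MeWo, 1.62 in HMV-I, 1.57 in C32TG and 1.53 in Colo679 (adjusted p = 0.0286). None of the neighbouring lines differed in NGFR, while HMV-II minus Colo679, the ends of the order, was 0.66 log2 (1.58-fold, 95% interval 0.25 to 1.07, adjusted p = 0.0295). The NGFR result did not pass in 5 of 17 alternative analyses.

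The 3 EGFR probes gave different pictures. The kept probe, which the annotation assigned to an expressed sequence tag, was dim and level in all lines, with means from -0.12 in HMV-I to -0.30 in MeWo. The probe assigned to the EGFR reference transcript lacked values on 11 of 108 arrays (10.2%), just above the limit of 10%. It gave 4.31 to 4.79 (median 4.45) in HMV-I, against 1.36 to 1.63 (median 1.54) in HMV-II and 0.23 to 1.21 (median 0.69) in MeWo. In Colo679, 92-1 and C32TG its means were -1.14, -1.25 and -1.29, near the bottom of the arrays. HMV-I thus stood above all other lines on every array, and with up to 20% missing values allowed, a choice made after seeing the data, HMV-I minus HMV-II was 2.99 log2 (7.94-fold, adjusted p = 4.71e-06), where 59.8% of probes differed between lines. The other EGFR probe lacked values on 46 arrays, and it measured 2.68 to 3.55 (median 3.18) in HMV-I, against at most -0.59 on any unirradiated array of the other lines.

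WNT5A, the ligand, ran from 3.48 to 4.08 (median 3.66) in HMV-I, against 1.92 to 2.20 (median 2.06) in C32TG. HMV-I minus C32TG was 1.66 log2 (3.15-fold, 95% interval 1.23 to 2.08, adjusted p = 0.000113). The 92-1, HMV-II, MeWo and Colo679 arrays lay lower, with means of 1.19, 1.16, 0.92 and 0.91. C32TG minus 92-1 was 0.88 log2 (1.84-fold, 95% interval 0.46 to 1.30, adjusted p = 0.00628), and none of the neighbours below differed. The WNT5A order therefore had HMV-I first, C32TG second and 4 lines that could not be separated.

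SOX9 followed another order. This transcription factor is known to be active in neural crest and cartilage development. It ran from 6.69 to 7.31 (median 7.03) in Colo679, against 2.90 to 3.06 (median 2.95) in C32TG, the second line. Colo679 minus C32TG was 4.06 log2 (16.6-fold, 95% interval 3.58 to 4.54, adjusted p = 1.63e-06). Means were 2.19 in 92-1, 2.03 in HMV-II and 1.95 in MeWo, which did not differ as neighbours, and the 6 HMV-I arrays ran from 0.39 to 0.66 (median 0.50). HMV-I lay below every array of MeWo, and MeWo minus HMV-I was 1.44 log2 (2.71-fold, 95% interval 0.96 to 1.92, adjusted p = 0.000723). ZEB1 lacked values on 18 of 108 arrays (16.7%), mostly in HMV-II and MeWo. It gave 3.27 to 3.39 (median 3.33) in HMV-I, against 2.12 to 2.35 (median 2.21) in C32TG and -0.04 to 0.71 (median 0.14) in 92-1. ZEB1 was near the bottom of the arrays in Colo679 (mean -1.14) and was measured on 3 of 6 unirradiated arrays in HMV-II (mean -1.41) and on 1 in MeWo (-1.39). With up to 20% missing values, the difference C32TG minus HMV-I was -1.11 log2 (adjusted p = 0.000623).

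FN1 was near the brightest spots in some lines and near the bottom of the array in HMV-I. Its arrays ran from 8.54 to 8.77 (median 8.64) in C32TG, from 8.19 to 8.46 (median 8.33) in Colo679 and from 8.06 to 8.39 (median 8.19) in HMV-II. Neighbours among these 3 lines were not separated, with adjusted p = 0.227 for C32TG minus Colo679 and 0.707 for Colo679 minus HMV-II. At the ends, every C32TG array lay above every HMV-II array. The means of the 3 lines lay only 0.89 to 1.34 log2 below the brightest spot of the array. FN1 ran from 4.52 to 4.79 (median 4.65) in MeWo and from 3.64 to 4.39 (median 4.16) in 92-1. HMV-I gave -1.36 to -0.91 (median -1.20), at a median of the 15.2 percentile of the array's probes. HMV-II minus MeWo was 3.53 log2 (11.6-fold, 95% interval 3.13 to 3.93, adjusted p = 1.33e-06), MeWo minus 92-1 was 0.56 log2 (1.47-fold, 95% interval 0.16 to 0.96, adjusted p = 0.0388) and 92-1 was above HMV-I (adjusted p = 4.30e-08). No size is given for the last difference, because so low a level in HMV-I cannot be told from background. The lines therefore fell into a bright group of 3, an intermediate pair and HMV-I.

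TNC, the other matrix gene, had means of 5.73 in C32TG, 4.75 in HMV-II, 3.04 in MeWo, 2.17 in Colo679, 0.45 in HMV-I and 0.17 in 92-1 (F test adjusted p = 4.48e-05). HMV-II minus MeWo was 1.71 log2 (3.28-fold, 95% interval 0.60 to 2.83, adjusted p = 0.0334) and Colo679 minus HMV-I was 1.72 log2 (3.28-fold, 95% interval 0.60 to 2.83, adjusted p = 0.0283). The other neighbours in the TNC order did not differ. Colo679 had SOX9 and FN1 near the top of its arrays but a TNC level from which C32TG differed by 3.57 log2 (adjusted p = 0.000748), so FN1 and TNC did not share 1 order. CDH2, the adhesion molecule, had means of 0.99 in C32TG, 0.73 in HMV-I, 0.69 in Colo679, 0.59 in HMV-II, 0.55 in MeWo and 0.34 in 92-1, and none of its neighbours differed. The ends of the order, C32TG minus 92-1, gave 0.65 log2 (1.57-fold, 95% interval 0.29 to 1.01, adjusted p = 0.0127), where 31.6% of all probes differed. The F test of CDH2 over the lines did not pass (adjusted p = 0.0656).

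**Figure D2:**
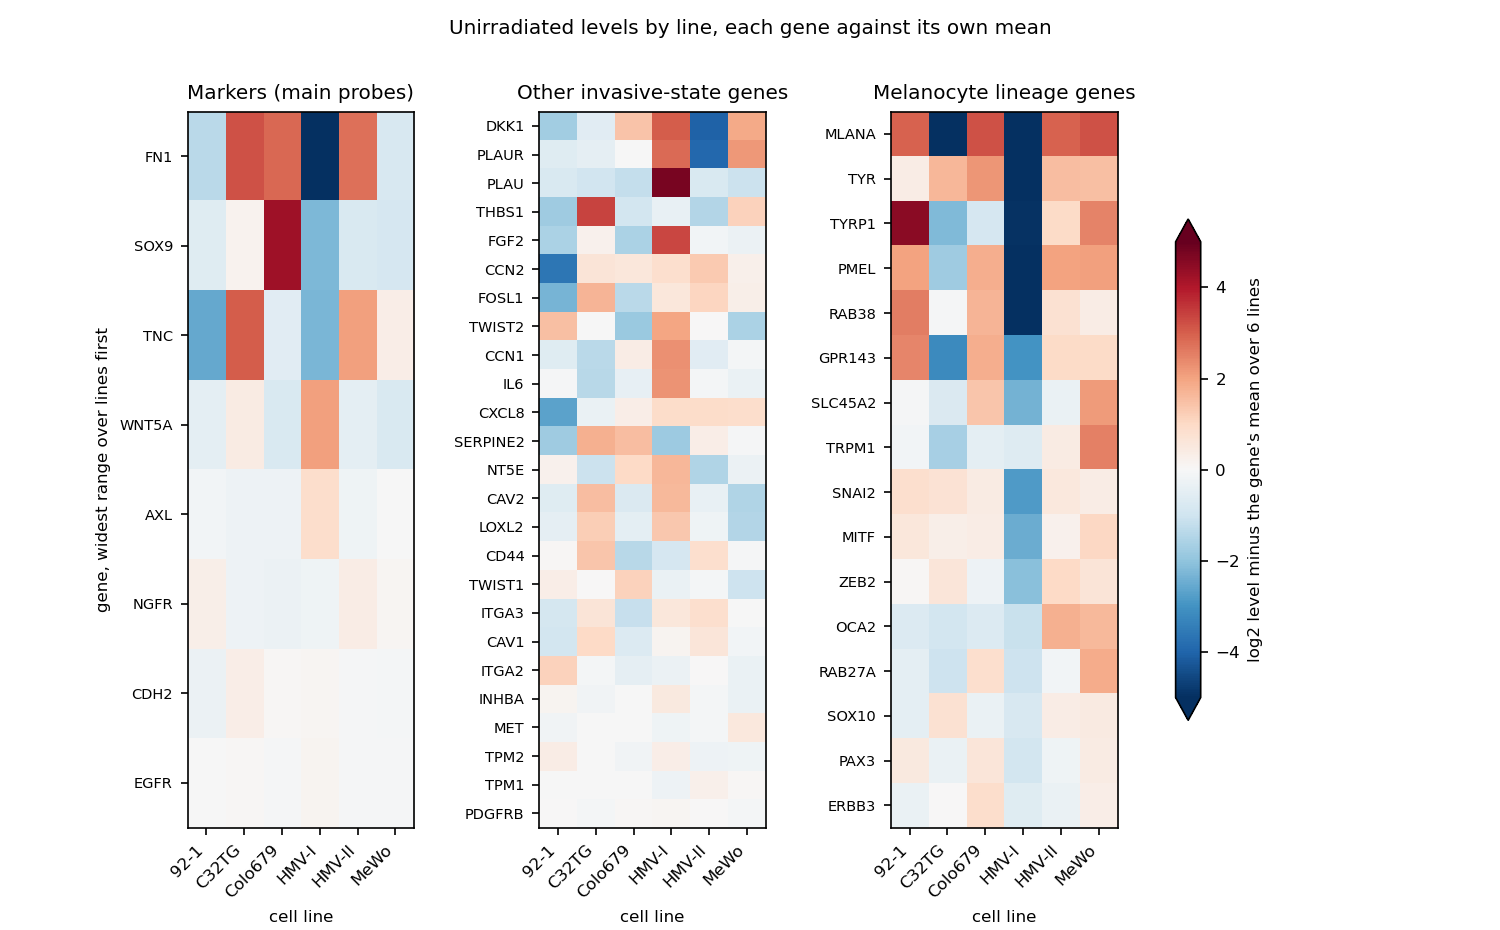
Unirradiated level of the 8 main marker probes and of the further invasive and lineage genes in 6 lines, each drawn as the line mean minus the mean over the lines (log2, colour scale limited at 5 in both directions). The HMV-I column is low for lineage genes and FN1 and high for WNT5A, PLAU, DKK1 and FGF2; LOX, whose brightest probe did not pass the filters, is not drawn.

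Further genes of the same state were read from lists chosen from textbook knowledge with earlier results of these data known. Of 30 further invasive-state genes, 26 were measured, and 22 of them (84.6%) differed between lines, against 59.6% of all probes. HMV-I was higher than each other line for 5 of the 26 (CCN1, DKK1, FGF2, IL6 and PLAU) and lower for 0, against 3.68% and 3.36% of all probes. PLAU, the urokinase protease, had a mean of 4.72 in HMV-I, against -0.80 to -1.24 in the other lines (adjusted p at most 8.50e-08 for each pair with HMV-I). Outside HMV-I it lay below the filter on mean level (-0.40). PLAU was thus among the 26 through HMV-I alone, and that filter favoured its count as higher there. DKK1, a secreted Wnt inhibitor, had a mean of 6.43 in HMV-I, against 5.31 in MeWo and -0.63 in HMV-II. PLAUR, the urokinase receptor, was 5.34 in HMV-I, against 4.70 in MeWo (adjusted p = 0.0979) and -1.40 in HMV-II. SERPINE2, a protease inhibitor of the matrix, ran the other way, with 4.87 in HMV-I, against 8.46 in C32TG.

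The labelled cell type was checked through 18 melanocyte lineage genes, of which 16 were measured and all 16 differed between lines, against 59.6% of all probes. HMV-I was lower than each other line for 9 of them, MITF, MLANA, PMEL, RAB38, SLC45A2, SNAI2, TYR, TYRP1 and ZEB2, against 3.36% of all probes. MITF, the master regulator of melanocytes, had a mean of 4.20 in HMV-I, against 6.88 to 7.72 in the other lines (adjusted p at most 5.26e-06 for each pair). TYR (tyrosinase) was -0.60 in HMV-I, against 7.09 to 8.93, and MLANA was -1.16 in HMV-I, against 0.53 in C32TG and 8.79 to 9.02 in the remaining lines. The defining pigment markers MLANA, TYR and TYRP1 were thus below the median spot in HMV-I, and the SOX10 probe was dim in every line (-0.79 to 0.80). ZEB2 had a mean of -1.06 in HMV-I, against 0.79 to 2.04 in the other lines, beside the ZEB1 levels given above.

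Of 31 partners of the markers (ligands, receptors, integrins and catenins), 22 were measured and 21 differed between lines, against 59.6% of all probes. HMV-I was higher than each other line for 3 of the 22, against 3.68% of all probes, namely for BDNF, a neurotrophin, with 4.24, for EREG, a ligand of EGFR, with 3.30, and for FZD2, a Wnt receptor, with 2.11. The other lines reached at most 1.81 for BDNF, -1.02 for EREG and 1.09 for FZD2. Outside HMV-I, EREG lay below the filter on mean level (-0.40). It was thus among the 22 through HMV-I alone, and that filter favoured its count as higher there. HBEGF, another EGFR ligand, was lowest in HMV-I at -0.10. GAS6, the ligand of AXL, was 2.95 in HMV-I, against 2.15 in C32TG and -1.04 in Colo679, and HMV-I did not differ from every other line in it.

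Markers of other cell types were read in the same way. Of 9 fibroblast markers, 0 lay above the 75th percentile of the array in HMV-I and 1 to 3 in the other lines. Their summed linear level was 11.0 in HMV-I, against 9.39 in 92-1, 21.3 in C32TG, 52.0 in HMV-II, 64.1 in Colo679 and 66.1 in MeWo. LUM (lumican) contributed to it with 5.73 in MeWo, 4.69 in HMV-II and 3.41 in Colo679. FAP contributed with 5.33 in Colo679, 4.16 in HMV-II and 3.72 in C32TG, the lines of the bright FN1 group. FAP was 1.20 in HMV-I, -1.05 in MeWo and -1.20 in 92-1. Fibroblasts also express FN1. MeWo had the largest sum and a lower FN1 level than C32TG, Colo679 and HMV-II. C32TG had the highest FN1 level and a smaller sum than MeWo, Colo679 and HMV-II. The source of the FN1 differences was not tested. No keratinocyte marker lay above that percentile in any line, and at most 1 leukocyte, 1 endothelial and 2 Schwann cell markers did.

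The genes whose 12 unirradiated set means followed a marker most closely were ranked among 13647 genes by Pearson's r, as a description over set means that share lines. They were ROPN1 (0.98), PLAT (0.98) and MCOLN3 (0.97) for FN1, and RNF32 (0.98), CHST11 (0.98) and C2orf66 (0.97) for SOX9. For TNC they were TANC1 (0.96), RIPK4 (0.95) and DGLUCY (0.95), and for WNT5A they were ALPK2, JPH2 and SCARA5 (each 0.98).

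Each line had 2 unirradiated sets, one per beam, and their difference is given first because every change after irradiation is read against one of them. Across the lines, 0 of 8 markers differed between the sets (0% of all probes), with unadjusted limma p of 0.146 or more. Within single lines, 15 of 45 tests in limma were called, in 7 of the 8 markers, against a background of 35% of all probes. TNC was called in 5 of 6 lines. It gave 5.96, 6.62 and 6.48 in the carbon-ion set of C32TG, against 4.70, 5.28 and 5.37 in its X-ray set. It gave 1.55, 1.46 and 1.46 in the carbon-ion set of Colo679, against 2.90, 2.90 and 2.74 in its X-ray set. The sets did not overlap in either line, and the differences had opposite signs, 1.24 (SE 0.16, adjusted p = 4.07e-06) in C32TG and -1.36 (SE 0.13, adjusted p = 3.39e-07) in Colo679, carbon-ion set minus X-ray set. TNC also differed by -0.69 (SE 0.11, adjusted p = 5.73e-05) in HMV-I, by -0.57 (SE 0.10, adjusted p = 4.80e-05) in MeWo and by 0.51 (SE 0.15, adjusted p = 0.0231) in HMV-II.

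WNT5A was lower in the carbon-ion set in 3 lines, by -0.42 (SE 0.07, adjusted p = 9.71e-05) in HMV-I, -0.39 (SE 0.09, adjusted p = 0.000429) in MeWo and -0.26 (SE 0.08, adjusted p = 0.0345) in HMV-II. SOX9 gave 6.81, 6.69 and 6.75 in the carbon-ion set of Colo679, against 7.25, 7.31 and 7.28 in its X-ray set, a difference of -0.53 (SE 0.08, adjusted p = 9.65e-05). In MeWo the SOX9 sets differed the other way, by 0.39 (SE 0.09, adjusted p = 0.000659), with 2.15, 2.11 and 2.18 in the carbon-ion set of MeWo, against 1.71, 1.71 and 1.86 in its X-ray set. This MeWo value was -0.025 (adjusted p = 0.836) in the values as deposited. AXL differed by 0.34 (SE 0.11, adjusted p = 0.0183) in HMV-I and by -0.17 (SE 0.06, adjusted p = 0.0261) in C32TG, NGFR by -0.37 (SE 0.10, adjusted p = 0.0142) in HMV-II, CDH2 by -0.43 (SE 0.12, adjusted p = 0.0185) in Colo679 and EGFR by -0.39 (SE 0.14, adjusted p = 0.0277) in HMV-I. FN1 was called in no line, and it was not tested in 92-1 and MeWo, where arrays lacked a value. In MeWo 69.6% of all probes differed between the sets, in HMV-I 46.6% and in C32TG 43.6%, against 21.3% in HMV-II, 15.2% in 92-1 and 13.6% in Colo679.

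The question of whether irradiation moved the markers was answered first across lines, with 1 value per line, the mean of the irradiated arrays minus the mean of the 0 Gy arrays of the same beam. At 1 h after carbon ions 1 of 8 markers passed, downward (10.7% of all probes, 4.76% higher and 5.98% lower). TNC changed by -0.36 in 92-1, -0.24 in C32TG, -0.09 in Colo679, -0.29 in HMV-I, 0.01 in HMV-II and -0.09 in MeWo. It was lower in 5 of 6 lines, and its mean change was -0.18 (SD 0.14, n = 6 lines, SE 0.05, 0.88-fold, limma adjusted p = 0.0480). The call did not hold without 92-1, C32TG, Colo679, HMV-I or MeWo in turn, with adjusted p of 0.128, 0.0952, 0.0790, 0.132 and 0.0651, nor without replicate 1 of every group (-0.11, adjusted p = 0.480). After X-rays, in arrays with their own 0 Gy set, TNC at 1 h changed by -0.18 (SD 0.19, adjusted p = 0.194) and was lower in 5 of 6 lines.

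In the other comparisons 0 of 8 markers passed, namely at 3 h after carbon ions (13.4% of all probes, 6.52% higher and 6.89% lower), at 1 h after X-rays (1.31%, 0.396% higher and 0.911% lower) and at 3 h after X-rays (7.14%, 2.82% higher and 4.32% lower). The median change of the 8 markers was 0.01 at 1 h and -0.06 at 3 h after carbon ions and 0.01 at 1 h and -0.04 at 3 h after X-rays, where the medians of all probes lay between 0.00076 and 0.0047. CDH2 came closest to the threshold at 1 h after carbon ions. Its changes ran from 0.03 in 92-1 to 0.36 in MeWo, higher in 6 of 6 lines, with a mean of 0.17 (SD 0.11, n = 6 lines, adjusted p = 0.0572). At 3 h after carbon ions the mean was 0.16 (SD 0.15, adjusted p = 0.115), again higher in 6 of 6 lines, with the same 0 Gy arrays. After X-rays CDH2 changed by -0.05 (SD 0.09, adjusted p = 0.732) at 1 h and -0.02 (SD 0.16, adjusted p = 0.857) at 3 h.

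**Figure D3:**
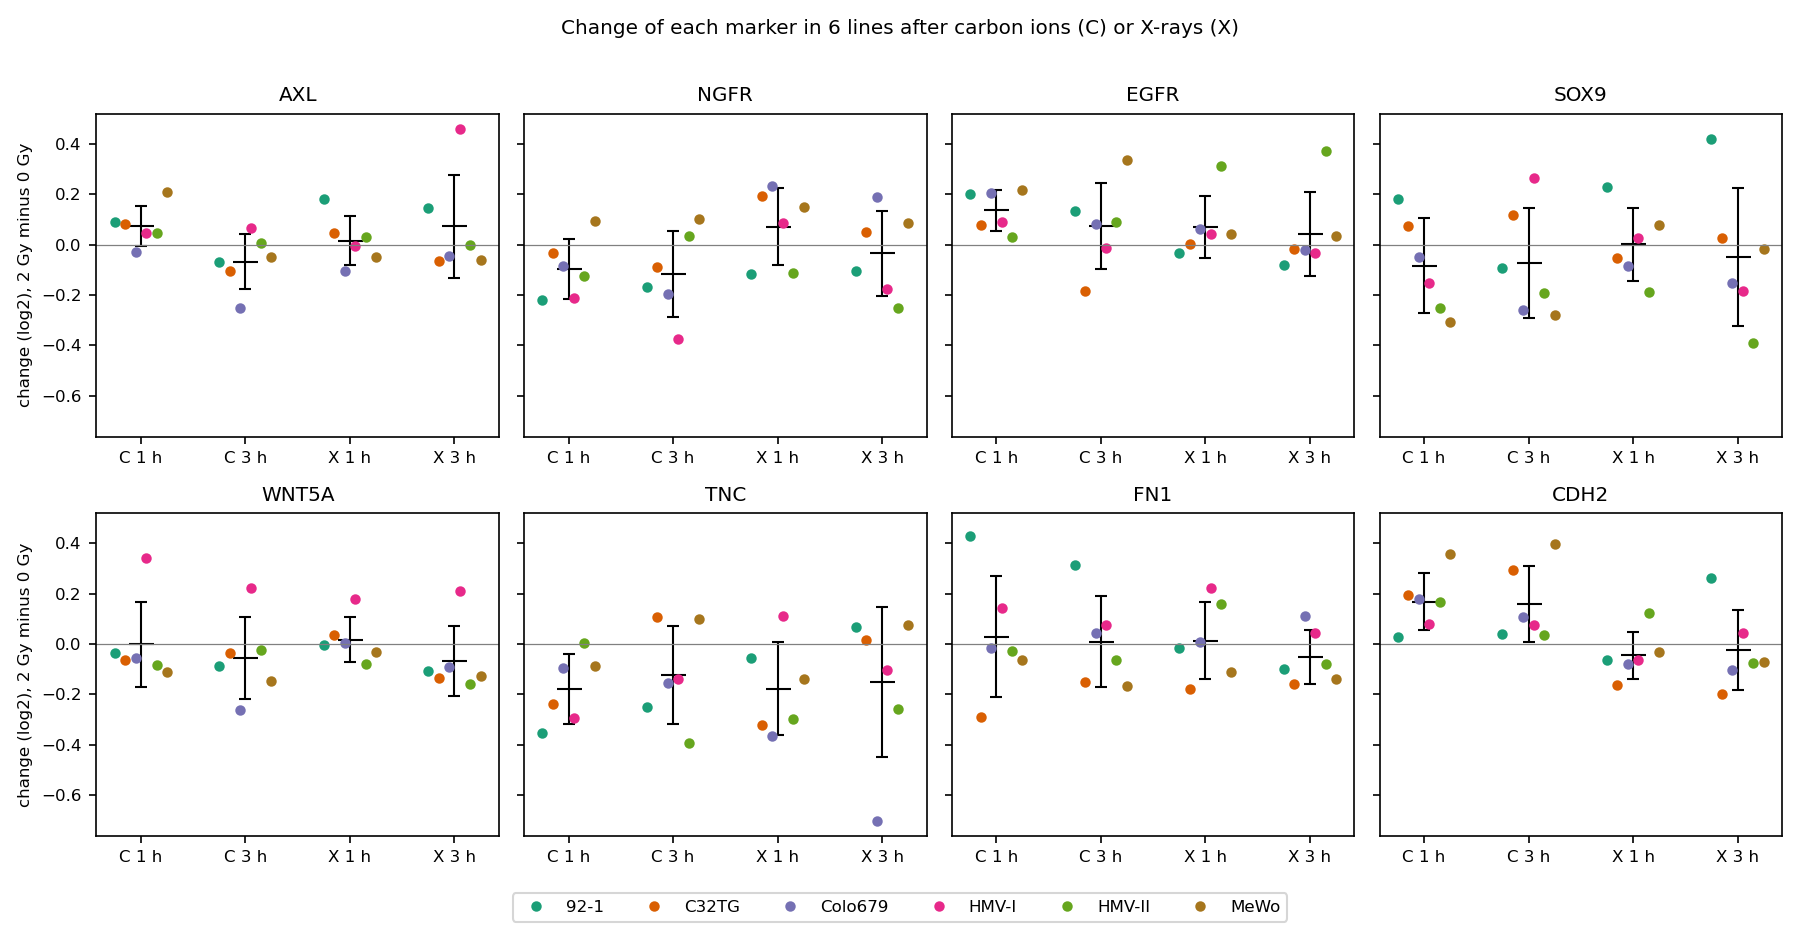
Change of the 8 tested markers (log2, irradiated minus 0 Gy of the same beam) at 1 h and 3 h after carbon ions (C) or X-rays (X). Each point is 1 line, and the bar and whiskers are the mean ± SD of 6 lines; TNC lies at or below 0.01 in all lines at C 1 h, CDH2 is above 0 in all lines at C 1 h and C 3 h, and TNC in Colo679 at X 3 h is the lowest point (-0.70).

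The EGFR probe on the reference transcript lay near the bottom of the array in 92-1, C32TG and Colo679, where arrays also lacked values. Its change within single lines is therefore given for the other 3 lines only, from the added analysis with up to 20% missing values. In HMV-I, where it was bright, it gave 5.09, 5.09 and 5.07 at 3 h after X-rays, against 4.67, 4.79 and 4.48 in the 0 Gy arrays, without overlap, and rose by 0.44 (SE 0.10, adjusted p = 0.00729), where 14.7% of probes passed. The changes at the same time after X-rays were 0.22 in HMV-II (SE 0.09, adjusted p = 0.159) and 0.13 in MeWo (SE 0.10, adjusted p = 0.523). In HMV-I its change at 3 h after carbon ions was 0.03 (SE 0.10, adjusted p = 0.883). The other EGFR probe bright in HMV-I did not repeat this pattern. It changed there by 0.04 at 3 h after X-rays and by 0.43 at 3 h after carbon ions. It lacked too many values to be tested, so the EGFR change in HMV-I rested on 1 probe. Across lines, the reference-transcript probe passed in the added analysis at 3 h after X-rays, with a mean change of 0.24 (SE 0.06, limma adjusted p = 0.0263). In the main analysis 7.14% of all probes passed there. That mean includes 92-1, C32TG and Colo679 (0.14, 0.14 and 0.36), where the probe lay near the bottom of the array. Its other changes after irradiation did not pass (adjusted p of 0.269 or more). The kept EGFR probe passed in no comparison across lines, with adjusted p of 0.103 or more.

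The carbon-ion change minus the X-ray change differed across lines for 0 of 8 markers at 1 h and at 3 h (0% of all probes at both times). At 1 h CDH2 and NGFR came closest and did not pass. The difference was 0.21 for CDH2 (SD 0.14, higher in 6 of 6 lines, adjusted p = 0.523). For NGFR it was -0.17 (SD 0.13, lower in 6 of 6 lines, adjusted p = 0.575). The 95% intervals of the differences at 3 h reached from -0.02 to 0.39 for CDH2, from -0.30 to 0.02 for AXL and from -0.18 to 0.24 for TNC, so that differences between the beams of this size were not resolved with 6 lines.

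Within single lines, limma fits on the 18 arrays of a line gave 180 tests of the 8 markers, of which 13 were called (7.42% of all probes over the same 24 contrasts), 6 upward (3.5% of all probes) and 7 downward (3.93%), with sizes from 0.22 to 0.70 log2. HMV-I and Colo679 each had 4 calls of 32 tests, MeWo 3 of 24, 92-1 1 of 28, C32TG 1 of 32 and HMV-II 0 of 32. With up to 20% missing values allowed, the share of all probes called over a line's 4 contrasts ran from 1.05% to 14.7% in HMV-I. It ran from 0.627% to 19.4% in Colo679, 0.58% to 22% in MeWo and 1.63% to 8.6% in 92-1. In C32TG it ran from 7.14% to 9.68% and in HMV-II from 0.121% to 9.35%. Leaving out replicate 1, 2 or 3 of every group in turn left 2 calls each time. Over 9 or 10 alternative analyses, each called change other than TNC in Colo679 held in only 3 to 8. The fewest, 3 of 10, were for SOX9 in 92-1 and CDH2 in MeWo.

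In HMV-I, the line with the highest AXL and WNT5A, both rose. WNT5A gave 3.80, 3.98 and 3.78 1 h after carbon ions, against 3.53, 3.53 and 3.48 in the 0 Gy arrays, and rose by 0.34 (SE 0.07, adjusted p = 0.0117). The 3 h arrays gave 3.68, 3.81 and 3.72, and the rise was 0.22 (SE 0.07, adjusted p = 0.0485) against the same 0 Gy arrays. All 6 irradiated arrays lay above the 3 unirradiated ones, but below or within the range of the X-ray 0 Gy set, whose mean was 3.93. After X-rays the WNT5A change in HMV-I was 0.18 at 1 h and 0.21 at 3 h, and it did not pass. AXL gave 2.86, 2.89 and 2.82 3 h after X-rays, against 2.49, 2.54 and 2.16 in the 0 Gy arrays, without overlap, and rose by 0.46 (SE 0.11, adjusted p = 0.00947). The unirradiated carbon-ion set of HMV-I had a mean of 2.73, and the AXL change at 3 h after carbon ions was 0.07. NGFR gave 1.42, 1.39 and 1.24 3 h after carbon ions, against 1.91, 1.62 and 1.65 in the 0 Gy arrays, all lower, and fell with a change of -0.38 (SE 0.09, adjusted p = 0.0104). Its change at 3 h after X-rays was -0.18. The share of all probes called in HMV-I was 4.5% at 1 h and 14.3% at 3 h for carbon ions, and 14.7% at 3 h for X-rays.

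In Colo679, the line with the highest SOX9, all 4 called changes were falls. Those of SOX9, WNT5A and AXL were read from the same irradiated and 0 Gy arrays, so their shared direction is not separate evidence. TNC gave 1.92, 2.20 and 2.30 3 h after X-rays, against 2.90, 2.90 and 2.74 in the 0 Gy arrays. The groups did not overlap, and TNC fell with a change of -0.70 (SE 0.13, adjusted p = 0.00183), which was called in all 10 alternative analyses. It was -0.16 at 3 h after carbon ions, where the 0 Gy level was already lower (1.49 in the carbon-ion set, 2.85 in the X-ray set). SOX9 gave 6.53, 6.45 and 6.49 3 h after carbon ions, against 6.81, 6.69 and 6.75 in the 0 Gy arrays, without overlap, a change of -0.26 (SE 0.08, adjusted p = 0.0297), which was 0.044 (adjusted p = 0.770) under median centring. WNT5A gave 0.60, 0.73 and 0.66 3 h after carbon ions, against 0.94, 0.97 and 0.86 in the 0 Gy arrays, without overlap, a change of -0.26 (SE 0.07, adjusted p = 0.0194). AXL gave 1.20, 1.15 and 1.12 3 h after carbon ions, against 1.56, 1.37 and 1.29 in the 0 Gy arrays, without overlap, a change of -0.25 (SE 0.08, adjusted p = 0.0403). The share of all probes called in Colo679 was 18.1% for carbon ions and 19.3% for X-rays, both at 3 h.

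In MeWo, SOX9 gave 1.85, 1.96 and 1.70 1 h after carbon ions, against 2.15, 2.11 and 2.18 in the 0 Gy arrays, and fell with a change of -0.31 (SE 0.09, adjusted p = 0.0268). At 3 h it gave 1.86, 2.00 and 1.74, a change of -0.28 (SE 0.09, adjusted p = 0.0286). No irradiated array reached the 0 Gy arrays of the carbon-ion set, and the X-ray 0 Gy set of MeWo had a mean of 1.76. CDH2 in MeWo gave 0.78, 0.83 and 1.08 3 h after carbon ions, against 0.52, 0.43 and 0.55 in the 0 Gy arrays, without overlap, and rose by 0.40 (SE 0.14, adjusted p = 0.045). CDH2 in C32TG gave 1.14, 1.25 and 1.23 3 h after carbon ions, against 0.98, 0.77 and 0.99 in the 0 Gy arrays, without overlap, and rose by 0.29 (SE 0.08, adjusted p = 0.0235). SOX9 in 92-1 gave 2.42, 2.79 and 2.60 3 h after X-rays, against 2.21, 1.89 and 2.44 in the 0 Gy arrays, and rose by 0.42 (SE 0.12, adjusted p = 0.0466), the single called change in which the groups overlapped. The 0 Gy set of the other beam, for comparison with these called changes, had means of 1.504 for NGFR in HMV-I, 7.28 for SOX9, 0.89 for WNT5A and 1.44 for AXL in Colo679, 0.60 for CDH2 in MeWo, 1.07 for CDH2 in C32TG and 2.19 for SOX9 in 92-1. The shares of all probes called in these comparisons were 11.6% and 21.9% in MeWo at 1 h and 3 h after carbon ions, 8.59% in C32TG at 3 h after carbon ions and 4.8% in 92-1 at 3 h after X-rays.

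**Figure D4:**
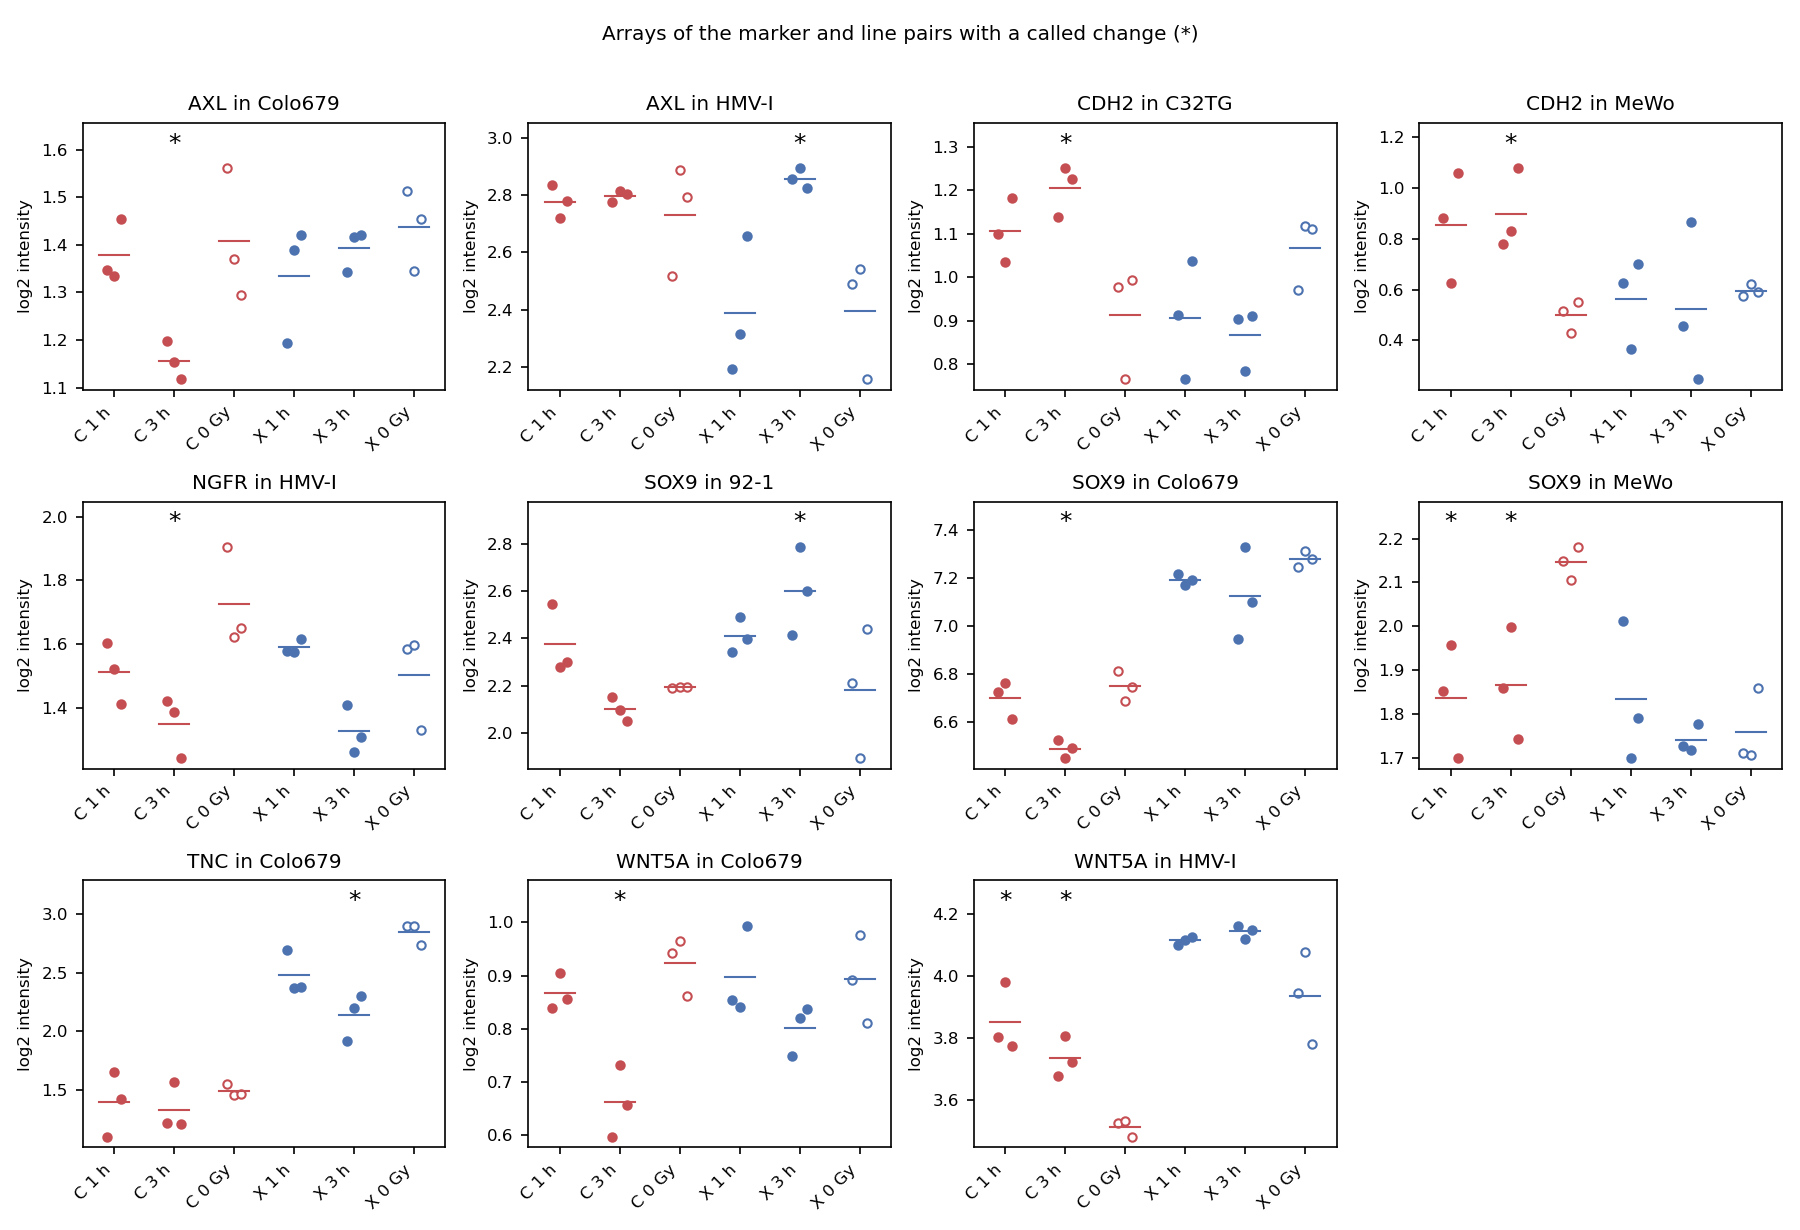
Arrays of the 11 marker and line pairs with a called change (log2 intensity, different axis range per panel). Filled points are irradiated and open points 0 Gy arrays, red for carbon ions (C) and blue for X-rays (X), bars are group means and stars mark called changes; the WNT5A arrays of HMV-I after carbon ions lie above their own 0 Gy set (3.48 to 3.53).

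Between the beams, 1 of 90 tests within lines was called (0.624% of all probes). CDH2 in C32TG gave 1.14, 1.25 and 1.23 at 3 h after carbon ions, against 0.98, 0.77 and 0.99 at 0 Gy, and 0.90, 0.78 and 0.91 at 3 h after X-rays, against 0.97, 1.12 and 1.11 at 0 Gy. The carbon-ion change minus the X-ray change was 0.49 (SE 0.11, adjusted p = 0.0430), in a comparison where 0.728% of all probes were called. The call did not hold without replicate 1, 2 or 3, with differences of 0.63, 0.33 and 0.52 and adjusted p of 0.175, 0.360 and 0.216.

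Whether a marker's change differed between lines was tested with an F test on the arrays, added after seeing the data. It was called for FN1 and WNT5A at 1 h after carbon ions (5.34% of all probes), for SOX9 and WNT5A at 3 h after carbon ions (23% of all probes), for 0 of 8 markers at 1 h after X-rays (3.33%) and for AXL, SOX9, TNC and WNT5A at 3 h after X-rays (20% of all probes). For WNT5A, HMV-I changed by 0.34, 0.22 and 0.21 in these comparisons, and the other 5 lines by -0.11 to -0.04, -0.26 to -0.02 and -0.16 to -0.09. For FN1 at 1 h after carbon ions, 92-1 changed by 0.43, against -0.29 in C32TG. Each of these 8 calls was lost without at least 1 of the replicate numbers.

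Other genes of the state changed across lines in small numbers. Among the 26 invasive-state genes at 1 h after carbon ions 2 fell, TPM2 (-0.17, adjusted p = 0.0200) and LOXL2 (-0.28, adjusted p = 0.0456), where 5.98% of all probes fell. At 3 h after carbon ions 3 rose, FOSL1 (0.36, adjusted p = 0.0257), TWIST2 (0.24, adjusted p = 0.0397) and FGF2 (0.20, adjusted p = 0.0412), and 2 fell, LOXL2 (-0.34, adjusted p = 0.0301) and CCN2 (-0.24, adjusted p = 0.0405), where 6.52% of all probes rose and 6.89% fell. At 1 h after X-rays none passed, and at 3 h after X-rays CCN1 (-0.50, adjusted p = 0.00715) and CCN2 (-0.26, adjusted p = 0.0394) fell, as did 4.32% of all probes. FOSL1 is an AP-1 subunit, LOXL2 crosslinks collagen, and CCN1 and CCN2 are secreted matricellular proteins.

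Of the 22 partner genes, SDC4 (a heparan sulfate co-receptor) rose by 0.27 at 1 h and 0.26 at 3 h after carbon ions and by 0.22 at 3 h after X-rays (adjusted p = 0.0208, 0.0337 and 0.0332), where 4.76%, 6.52% and 2.82% of all probes rose. FZD5, a Wnt receptor, rose by 0.19 and 0.27 at 1 h and 3 h after carbon ions (adjusted p = 0.0393 and 0.0227), GAS6 by 0.16 at 1 h (adjusted p = 0.0463) and TYRO3, a receptor related to AXL, by 0.20 at 3 h (adjusted p = 0.0468). Of the 16 lineage genes RAB38 alone fell at 3 h after carbon ions (-0.29, adjusted p = 0.0167, lower in 6 of 6 lines), where 6.89% of all probes fell. None passed in the other comparisons.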

How the data were processed

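Total RNA of 6 melanoma lines was measured on 108 single-colour CodeLink arrays, per the labels' protocols. The authors deposited spot intensity on a linear scale. Between 50.0% and 51.8% of an array's values were below 1, and the scaling software is not given in the sources used here. From the deposited intensity, log2 values were computed and quantile-normalized with missing spots (1000 to 8034 per array) as lowest ranks, since array medians ranged over 0.38 log2. Probes with at most 10% missing values, a mean above the 40th percentile (-0.40) and a value in every group were kept, 32061 of 54359. The platform annotation gave 1 gene symbol for 23472 probes, several for 905 and none here for 29982. A gene was represented by its brightest kept probe.

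Groups came from the labels. Tests used limma 3.58.1 in R 4.3.3 (lmFit, eBayes with a trend), two-sided, with p-values adjusted by Benjamini-Hochberg (0.05) across every kept probe, on 12 set means for baseline, on 1 value per line across lines and on 18 arrays within a line for probes without missing values there (FN1 not in 92-1 and MeWo, AXL not in MeWo). The scripts were tested on simulated data. The members and gene lists were chosen with earlier results of these data known. All 10 markers are named, and of the lists the genes called across lines (at most 5 in each direction). At baseline these are MITF, SOX10, MLANA, TYR and the 3 invasive-state genes of widest range, and for likeness the 3 genes of highest correlation. List genes that set HMV-I apart, other-cell markers with high levels, SERPINE2, ZEB2, TYRP1, HBEGF and GAS6 were named after their values were seen. The 3 arrays of a group limit the precision (replicate arrays correlated with r = 0.984 to 0.997, and 0 pairs of arrays were identical). Alternatives varied scaling, filters, replicates, lines and the unit of the fit. SOX9 and NGFR promoter sequences were not used here.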

Additional observations from a re-analysis of the deposited data

Results flagged for a closer look

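Values of 1 line that lay far from the other 5 were looked for in 64 groups of 6 lines, where the gap to the nearest line exceeded Dixon's critical share of the range. This was met in 10 groups, and chance flags about 1 in 20. AXL at baseline was one of them, with HMV-I at 2.56. WNT5A in HMV-I stood out at 1 h after carbon ions (0.34), at 3 h after X-rays (0.21) and in the carbon-ion change minus the X-ray change at 1 h (0.16). FN1 in 92-1 stood out in the carbon-ion change minus the X-ray change at 1 h (0.44) and at 3 h (0.41). The kept, dim EGFR probe stood out in HMV-II at 1 h (0.31) and 3 h (0.37) after X-rays and in the beam difference at 1 h (-0.28), and in HMV-I between the unirradiated sets (-0.39).

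Effects that differed between groups by a test of the difference were the CDH2 change in C32TG at 3 h, which was 0.49 log2 larger after carbon ions than after X-rays (adjusted p = 0.0430, and 0.175 to 0.360 without each replicate), and 8 changes that differed between lines in limma's F test. At 1 h after carbon ions the F values were 5.83 for FN1 (adjusted p = 0.00718) and 5.78 for WNT5A (adjusted p = 0.00740). At 3 h after carbon ions they were 3.55 for SOX9 (adjusted p = 0.0320) and 5.26 for WNT5A (adjusted p = 0.00411). At 3 h after X-rays they were 5.28 for AXL (adjusted p = 0.00490), 5.49 for SOX9 (adjusted p = 0.00381), 4.06 for TNC (adjusted p = 0.0194) and 3.84 for WNT5A (adjusted p = 0.0249). Each of the 8 was lost without at least 1 replicate number. At 1 h after carbon ions this held for FN1 without replicate 1 or 2 (adjusted p = 0.132 and 0.0972) and WNT5A without replicate 1 or 2 (0.187 and 0.180). For the 3 h changes after carbon ions it held for WNT5A without replicate 1 or 2 (0.0794 and 0.125) and SOX9 without replicate 2 or 3 (0.468 and 0.270). For the 3 h changes after X-rays it held for AXL without replicate 1 or 3 (0.0748 and 0.135), SOX9 without replicate 2 (0.456), TNC without replicate 1 or 2 (0.0961 and 0.2004) and WNT5A without replicate 1, 2 or 3 (0.237, 0.117 and 0.180).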

How the results depend on the processing

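The number of markers differing between lines at baseline (6) was 4 to 8 over 17 alternatives. The number changed at 1 h after carbon ions (1) was 2 under median centring, 0 in the values as deposited, 0 without the filter on level, 2 with no missing value allowed, 0 to 2 without a replicate, 0 to 1 without a line, 3 in the fit on arrays and 3 in that fit with a replicate block. At 3 h after carbon ions (0) it was 2 in the fit on arrays and 2 with the replicate block, at 1 h after X-rays (0) 1 and 1, and at 3 h after X-rays (0) 1 and 2, and 1 with up to 20% missing values. Between the unirradiated sets across lines (0) it was 3 and 3. The replicate numbers did not pair the arrays (correlation of deviations over 0.1 in 28 of 108 pairs, median 0.03). The fits on arrays leave out the spread between lines, and over all probes they called 31319 at baseline (19120 on set means), 8623 and 13893 at 1 h and 3 h after carbon ions (3443 and 4299 across lines), 3187 and 9833 after X-rays (419 and 2290), 17699 between the unirradiated sets (0) and 281 and 387 between beams (0 and 0). The number of markers differing between beams stayed 0 in all 17 alternatives. Changes within lines (13) numbered 2 without each replicate, where fewer arrays are tested, and up to 17 otherwise, and set differences within lines (15) numbered 9 to 12 without a replicate. The sign turned for SOX9 in Colo679 at 3 h after carbon ions (0.044, median centring) and for SOX9 between the MeWo sets (-0.025, values as deposited). The cause was not tested. No marker had a second kept probe, so that alternative gave no value. Spots missing on many arrays limit EGFR and ZEB1.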
